A study of Homo sapiens with 54 samples.

Results

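Tumours that had become resistant to enzalutamide (ENZR) differed widely in how strongly they expressed genes of cell division, and the 4 most strongly cycling ENZR tumours were compared with the 10 quieter ones. The split used the mean of log2(TPM + 1) over MKI67, TOP2A, BIRC5 and UBE2C, with TPM (transcript abundance scaled to a fixed total) rescaled to 1000000 in each tumour. The 4 tumours with the highest mean were taken as cycling and all other ENZR tumours as quiet. Of the 15 ENZR tumours among 54 in all, 14 entered, because the human TPM of ENZR mouse 87 summed to only 12.1% of 1000000, under the minimum of 300000 TPM.

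LNCaP is a human prostate cancer line that depends on androgens. Its FGC clone was grown subcutaneously in NOD-SCID hosts without functional lymphocytes, 1 tumour to a mouse. All ENZR mice had been castrated and then received enzalutamide, an antiandrogen drug, at 10 mg/kg once serum prostate-specific antigen (PSA) rose, and these agents are shared by the cycling and the quiet tumours. Their tumours were taken when PSA had returned to its level before the drug or when the tumour had reached its size limit, and the labels do not say which of these applied to a given mouse. The other groups served here only as tumours outside the split: ENZS tumours (12) from castrated mice responding to the same drug, CRPC tumours (10) that had relapsed after castration alone, POST-CX tumours (8, of which 7 were used) at the lowest PSA after castration, and PRE-CX tumours (9) from mock-operated mice.

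A cell that divides must copy its DNA in S phase and separate its chromosomes in mitosis. The genes for these steps are switched on together by E2F factors before S phase and by MYBL2 and FOXM1 complexes before mitosis, and cells outside the cycle keep them repressed. In prostate cells, androgens drive both growth and the secretory genes that include PSA, so that the state of these secretory genes in tumours that divide under an antiandrogen is of interest.

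The tumours were chosen by the TPM of these 4 markers, and the marker values are given as a description. The marker mean was 4.47 ± 0.483 in the cycling tumours (SD, n = 4) and 2.53 ± 1.01 in the quiet ones (SD, n = 10). Just inside the split lay mouse 100 at 3.92, below mice 75, 104 and 94 at 4.91, 4.83 and 4.20. Just outside it lay mice 72, 21 and 103 at 3.61, 3.57 and 3.57, while the quietest tumour, mouse 98, had 0.64. The step from 3.92 to 3.61 is small beside the range within the quiet group, so that the split divides a graded series rather than separate clusters.

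MKI67, the antigen used to stain dividing cells, was at 11.5, 13.1, 6.43 and 5.69 TPM in cycling mice 75, 104, 94 and 100, against 1.12, 2.59 and 5.32 TPM for the lowest, median and highest quiet tumour. TOP2A, the topoisomerase that untangles replicated DNA, was at 26.5, 27.5, 21.5 and 16.6 TPM in the same mice, against 0.407, 5.29 and 13.7 TPM. BIRC5, the survivin subunit of the chromosomal passenger complex, was at 49.6, 34.3, 25.8 and 19.1 TPM, against 0.330, 6.86 and 15.5 TPM. For these 3 genes the groups did not overlap. UBE2C, which helps to mark mitotic cyclins for degradation, was at 46.4, 44.6, 24.6 and 21.1 TPM, against 0.483, 9.35 and 21.7 TPM, and quiet mouse 103 exceeded cycling mouse 100.

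The cycling tumours had marker means within the range of CRPC tumours, which ran from 3.77 to 5.29. The quiet tumours, from 0.64 to 3.61, lay within the range of the ENZS tumours on treatment, which ran from 0.41 to 3.93. All PRE-CX and used POST-CX tumours were above 4.60.

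**Figure D1:**
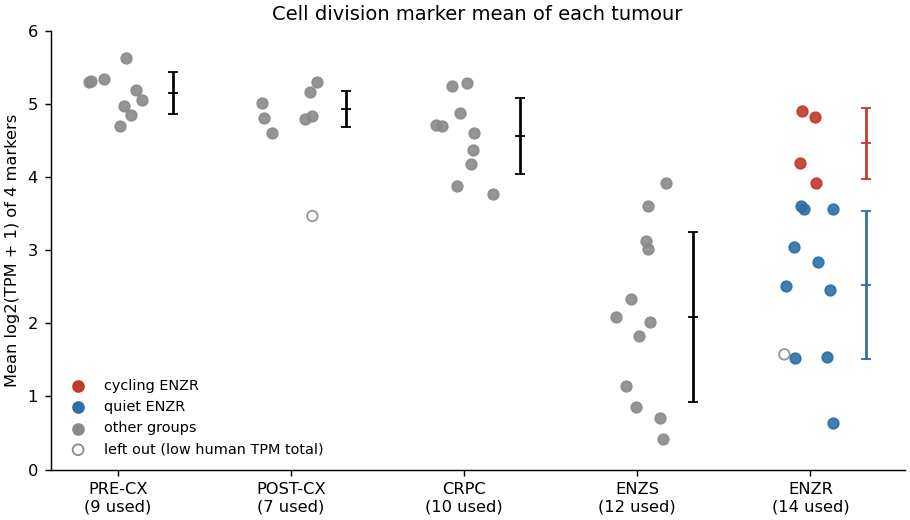
Mean log2(TPM + 1) of MKI67, TOP2A, BIRC5 and UBE2C (vertical axis) for each tumour (points) in the 5 groups, with the 4 cycling ENZR tumours in red, the 10 quiet ones in blue, and mean and SD as bars. The cycling tumours sit at 3.92 to 4.91, within the CRPC range, and open points are the 2 tumours left out for a low human TPM total.

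The promoters of MKI67 and TOP2A are shown because both carry the short elements through which mitotic genes are repressed outside the cycle. The sequences are from RefSeq on GRCh38.p14, which holds entries for MKI67 and TOP2A, and show bases before the start site on the gene's own strand. Capitals mark the cell cycle homology region TTTGAA and the CCAAT box on either strand, which appear reversed as TTCAAA and ATTGG. Near the start site of MKI67 a TTTGAA and a reversed CCAAT box overlap.
MKI67, chr10:128126424-128126573, minus strand: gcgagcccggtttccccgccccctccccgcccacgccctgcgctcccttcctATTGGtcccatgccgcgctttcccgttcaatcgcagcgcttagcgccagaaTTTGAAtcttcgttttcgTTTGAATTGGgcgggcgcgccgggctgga
TOP2A, chr17:40417897-40418146, minus strand: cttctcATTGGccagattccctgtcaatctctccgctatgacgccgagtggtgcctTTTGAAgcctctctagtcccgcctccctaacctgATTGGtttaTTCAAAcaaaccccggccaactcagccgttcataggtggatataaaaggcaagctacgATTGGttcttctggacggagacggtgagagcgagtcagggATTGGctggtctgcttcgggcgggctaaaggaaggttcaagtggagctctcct

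In the 250 bases before the start site, searched on both strands, CCAAT was found in 11240 of all 35116 promoters of the table and TTTGAA in 4677 (13.3%). Among the 147 promoters of 117 cell division genes that met the call rule used below in the higher direction, the counts were 98 (66.7%) and 40 (27.2%). TTCGAA, a variant of the homology region, was found in 1.36% of them against 1.19% of all promoters. The E2F letters TTTCGCGC and TTTGGCGC were found in 3 (2.04%) and 9 (6.12%) of the 147, against 0.439% and 0.55% of all promoters. Over the 15656 promoters of genes tested the shares were 33.3% for CCAAT, 9.06% for TTTGAA and 1.35% for TTCGAA. For the E2F letters they were 0.735% and 0.766%. Cell division genes that were not called were not counted apart, so these shares cannot be tied to the rise. These matches describe letters and were not measured as binding.

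Genes of cell division followed the markers, as they must to some degree by the choice of tumours, and are described without a test. Of 340 such genes tested, 291 were higher in the cycling tumours, with a median log2 difference of 0.82, and 145 (42.6%) met the call rule used below in the higher direction. In 127 genes (37.4%) every cycling tumour was above every quiet one. RRM2, the ribonucleotide reductase subunit that supplies deoxynucleotides, was at 110, 91.9, 58.6 and 36.4 TPM in mice 75, 104, 94 and 100, against 0.419, 10.3 and 25.7 TPM (lowest, median, highest) in quiet tumours. TYMS, thymidylate synthase, had a log2 difference of 2.18, and MND1, a meiotic recombination factor, one of 2.31. Among replication genes the largest differences were those of CDC45 (2.18), CDC6 (2.07) and MCM10 (2.02), which load and start the replicative helicase. In mitosis and spindle genes PBK, BIRC5 and NUSAP1 led with 2.27, 2.25 and 2.14. The list of homologous recombination was led by EXO1 and by HMMR, a spindle protein placed there, each at 1.84, with BRCA1 at 1.74. By list, the median log2 difference was 1.16 over 156 mitosis genes, 0.88 over 65 genes of nucleotide supply and S phase, 0.80 over 33 of homologous recombination and 0.72 over 59 of replication. One histone, H4C15, had a log2 difference of -1.07.

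Genes outside cell division were then compared. With limma on log2(TPM + 1), calling a gene required a Benjamini-Hochberg adjusted p below 0.05 together with a log2 difference of 1 or more in size. Of 17016 genes tested, 419 (2.46%) were called. Outside cell division 273 of 16676 genes (1.64%) were called, 42 higher (0.252%) and 231 lower (1.39%) in the cycling tumours. In 99 genes (0.594%) every cycling tumour was above every quiet one, and in 611 (3.66%) every cycling tumour was below. Because the marker genes come from the same libraries, these p-values measure association with the marker ranking over 14 tumours.

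How many genes were higher or lower changed with the scaling. The median log2 difference of all genes tested was -0.20 with rescaled TPM, and outside cell division it was -0.21, against -0.07 as deposited and -0.02 with each tumour centred on its median. As deposited 56 genes were higher and 61 lower (47.9% higher, against 15.4% after rescaling), and after centring 79 were higher and 79 lower. All 273 genes kept their direction under both scalings, and 97 and 121 of them were also called. The share of lower genes is therefore no result of its own, and differences below are read against the median of -0.20.

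Mouse 75, the tumour with the highest marker mean, carried many of the calls. Without it 14 genes were higher and 65 lower, and 60 of the 273 were called again. Without mouse 94 the count of lower genes went the other way, to 368. Of the 273 symbols 228 matched RefSeq and 194 were protein-coding, 25 of them higher and 169 lower. 11 symbols held only 2 distinct rows of values, and each of these rows counts once as a measurement.

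**Figure D2:**
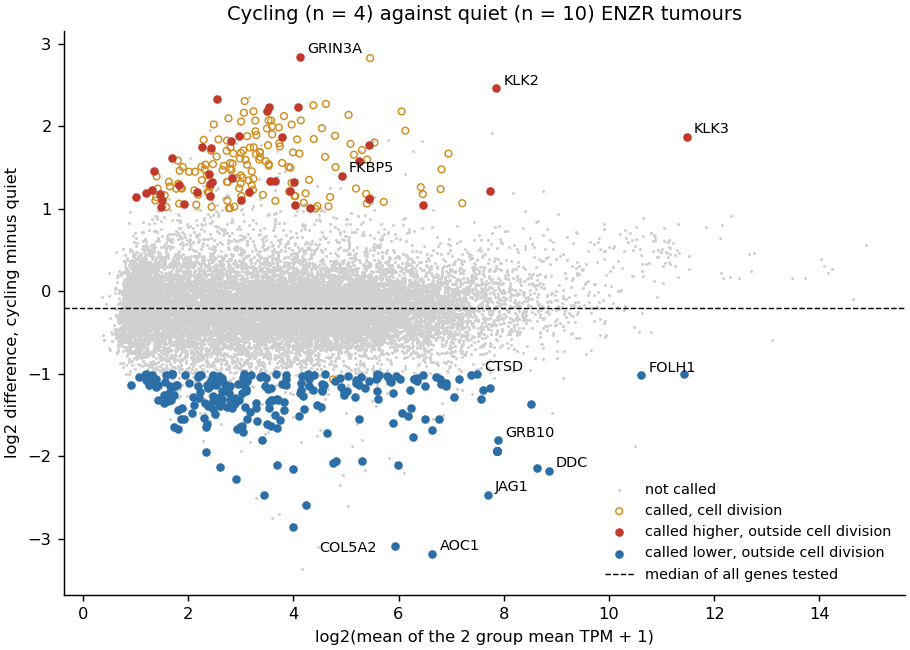
Log2 difference between cycling and quiet ENZR tumours (vertical axis) against the level of each of 17016 genes (horizontal axis, log2 of the mean of both group means + 1). Called genes outside cell division are filled, with 42 higher in red and 231 lower in blue, called cell division genes are open circles, and the dashed line marks the median of all genes at -0.20.

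The libraries differed in measures other than these genes. Human TPM summed to 93.3% ± 2.14 of 1000000 in the cycling tumours (SD, n = 4) and to 83.4% ± 8.76 in the quiet ones (SD, n = 10), a difference of 9.84 percentage points (exact two-sided permutation test, p 0.0400, adjusted over 2 tests 0.0400). The remainder of each total is mouse transcripts, which were left out of the deposited values. At least 1 TPM was reached by 15560 ± 242 genes in cycling and 16158 ± 289 in quiet tumours (exact two-sided permutation p 0.00599, adjusted 0.0120), a difference of -597.65 genes. With TPM as deposited the difference was -278.4 genes (exact permutation p 0.265). Mitochondrial transcripts made up 19.7% ± 1.80 and 17.6% ± 4.66, with 30.3% in quiet mouse 23.

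Of 25 marker genes of stroma, vessels and blood, 4 were at 0 in every cycling tumour and 3 in every quiet one, and 19 and 16 had a mean under 1 TPM. PTPRC, PECAM1 and CDH5, genes of leukocytes and endothelium, had means under 0.02 TPM in both groups, and POSTN, TYROBP and HBA1 were at 0. Other genes of such cells were not as low. CD68 averaged 0.595 TPM in cycling and 3.95 TPM in quiet tumours, and VWF 0.935 and 1.43 TPM. Mouse transcripts were left out of these values, so low human levels do not measure host cells. The summed level of the 25 genes ran from 19.9 to 94.6 TPM (median 59.6) in cycling tumours and from 60.1 to 103 TPM (median 90.1) in quiet ones. COL3A1 was highest in quiet tumours at a mean of 33.9 TPM and LUM in cycling tumours at 17.4 TPM (6.25 TPM in quiet ones), while the matrix gene DCN averaged 7.01 TPM in cycling and 2.65 TPM in quiet tumours. Mouse 100 led both cycling means. LUM was at 1.14, 10.6, 8.54 and 49.5 TPM in mice 75, 104, 94 and 100, and DCN at 0.358, 3.05, 2.99 and 21.6 TPM. Quiet tumours reached 25.2 TPM for LUM and 8.71 TPM for DCN. Of 9 such genes tested, 7 were below 0 and 2 above, and COL3A1 was called, with -1.72 (limma adjusted p 0.0292), a call lost as deposited (0.0832), centred (0.0589) and without mouse 75, 94 or 100 (0.143, 0.0524 and 0.0846). In bulk tissue fewer cells of a type and less RNA per cell cannot be told apart. The part of host reads in the lower genes was not tested. With the human TPM total as a covariate 50 genes were higher and 324 lower, and 172 of the 273 genes were called again.

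The epithelial identity of both groups was checked on keratin, adhesion and prostate lineage genes and on vimentin. KRT18 was at 329 to 380 TPM in cycling tumours and 278 to 470 TPM in quiet ones, and EPCAM at 136 to 206 TPM and 115.6 to 276 TPM, without separation of the groups. KRT8 was at 250 to 350 TPM and 292 to 437 TPM, with a log2 difference of -0.35 that did not pass (limma adjusted p 0.0690). The adhesion genes CDH1 and CLDN7, given below, passed lower. VIM, which encodes vimentin, was at 14.7, 96.5, 66.0 and 1086 TPM in cycling mice 75, 104, 94 and 100. Quiet tumours ran from 8.25 to 344 TPM, so mouse 100 stood above all others, and VIM did not pass the test. HOXB13 and FOXA1, transcription factors of prostate cells, had log2 differences of -0.98 (limma adjusted p 0.0480) and -0.52 (limma adjusted p 0.0332), both short of the size required for a call. Neither passed as deposited (limma adjusted p 0.210 and 0.336), centred (0.106 and 0.149) or without mouse 75 (0.212 and 0.149).

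The highest expressed gene among those that rose was KLK3 (chromosome 19, 50854915 to 50860764), which encodes PSA, and its neighbour KLK2 (chromosome 19, 50873439 to 50880567) rose with it. KLK3 was at 4991, 6704, 5120 and 1231 TPM in mice 75, 104, 94 and 100, against 323, 925 and 2643 TPM for the lowest, median and highest quiet tumour. Cycling mice 75, 104 and 94 stood above all quiet tumours, and mouse 100 stood among them, below 4 of 10. KLK2, a related secreted protease, was at 677, 353, 389 and 120 TPM, against 27.4, 50.9 and 274 TPM, again with mouse 100 inside the quiet range. The log2 differences were 1.87 for KLK3 (SE 0.48, limma adjusted p 0.0222) and 2.46 for KLK2 (SE 0.52, limma adjusted p 0.0106). Both lost the call without mouse 75 (limma adjusted p 0.0929 and 0.0615). KLK3 also lost it without mouse 104 (limma adjusted p 0.0733) and without the filter on low values. Against the marker mean as a continuous measure over the 14 tumours, KLK3 had a slope of 0.50 that did not pass (limma adjusted p 0.137), and KLK2 had one of 0.89 that did (limma adjusted p 0.0127). PSA in serum was among the criteria for taking an ENZR tumour, so the level of KLK3 and the time of collection cannot be told apart.

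FKBP5 (chromosome 6, 35573590 to 35728583), a chaperone of steroid receptors induced by androgens and glucocorticoids, was at 112, 33.7, 15.3 and 23.2 TPM in the same 4 mice, against 9.63, 11.9 and 19.9 TPM in quiet tumours. It rose by 1.40 in log2 (SE 0.34, limma adjusted p 0.0192), with mouse 75 far above the rest and mouse 94 within the quiet range, and without mouse 75 the difference was 0.84 (limma adjusted p 0.0587). TMPRSS2, the androgen-induced membrane protease, was at 226, 412, 122 and 156 TPM, against 90.7, 115 and 149 TPM. Its log2 difference of 0.84 passed the test (SE 0.23, limma adjusted p 0.0274) and met the size for a call as deposited (1.01) and centred (1.03), but did not pass without mouse 75 or 104 (0.105 and 0.0825).

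The promoters of KLK3 and KLK2 are shown because these genes rose together and share an androgen response element near the start site. The letters searched on both strands, GAACANNNAGTGCT, were chosen after the values of KLK3 and KLK2 were seen, and are in capitals. They were found in 0.0399% of all 35116 promoters and are a description of these windows.
KLK3, chr19:50854715-50854914, plus strand: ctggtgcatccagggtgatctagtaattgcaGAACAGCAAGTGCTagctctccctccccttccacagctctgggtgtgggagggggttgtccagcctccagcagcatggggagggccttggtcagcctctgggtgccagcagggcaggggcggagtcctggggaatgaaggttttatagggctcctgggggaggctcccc
KLK2, chr19:50873239-50873438, plus strand: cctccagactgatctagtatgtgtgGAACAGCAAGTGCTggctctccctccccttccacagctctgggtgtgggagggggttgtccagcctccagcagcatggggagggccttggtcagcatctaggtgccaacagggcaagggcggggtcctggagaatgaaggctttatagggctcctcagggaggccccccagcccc

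Not every androgen-regulated gene went the same way. Of 38 tested genes listed as kallikreins or androgen-induced, 8 passed the test higher and 2 lower, beside 1.28% and 9.84% of all genes outside division. Of these 5 and 1 were called, beside 0.252% and 1.39%, and the median log2 difference was 0.22 against -0.20 over all genes. ALDH1A3, an androgen-induced retinal dehydrogenase, was lower in all 4 cycling tumours than in any quiet one, at 25.6, 78.1, 90.0 and 101 TPM against 110, 140 and 229 TPM, with -1.12 in log2 (SE 0.27, limma adjusted p 0.0192). It did not pass as deposited (-0.95, limma adjusted p 0.0699) or without mouse 75 (-0.68, limma adjusted p 0.0640), and centred it was -0.93, short of a call. STEAP2, a metalloreductase of prostate epithelium, had -0.73 (SE 0.21, limma adjusted p 0.0339). It did not pass as deposited (limma adjusted p 0.212), centred (0.0906) or without mouse 75 (0.157). Of 17 androgen-repressed genes none passed higher and 2 were called lower, DDC and FOLH1. Both calls were lost as deposited and without mouse 75, 104 or 100. UGT2B17, which inactivates androgens and is repressed by them, was at 547, 310, 203 and 145 TPM in cycling tumours against 7.13, 96.5 and 335 TPM in quiet ones, a log2 difference of 1.92 with a wide error (SE 0.92, limma adjusted p 0.169), and its reads may be shared with related UGT2B genes. The steroid-metabolising list that holds it had 15 tested members with none past the test and a median of -0.08.

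**Figure D3:**
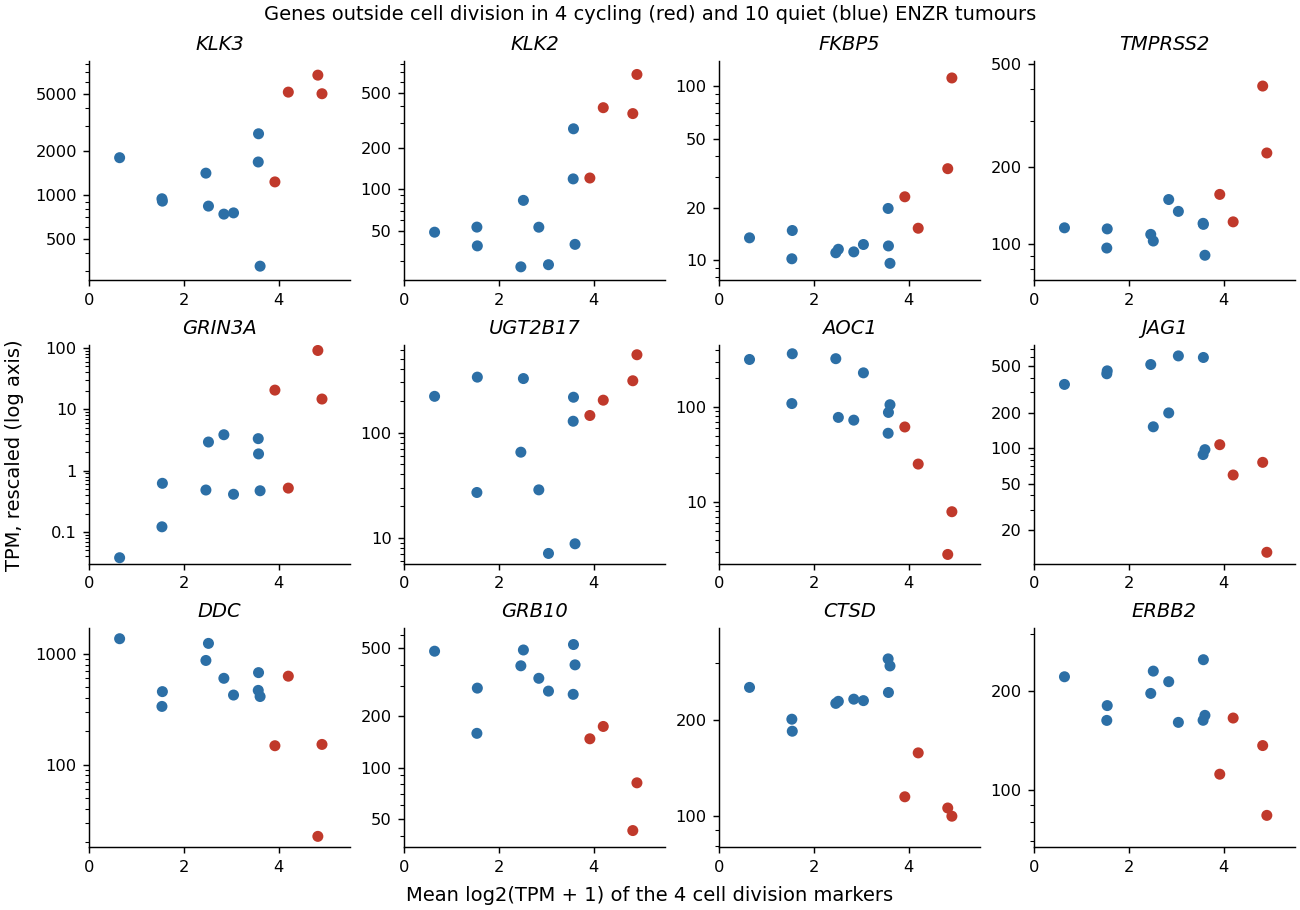
TPM of 12 genes outside cell division (vertical log axes) against the marker mean (horizontal axes) in the 4 cycling (red) and 10 quiet (blue) ENZR tumours. KLK3 and KLK2 are high in 3 of the 4 cycling tumours and in mouse 100 lie within the quiet range, while for CTSD all 4 cycling tumours are below every quiet one.

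Several of the genes that rose outside the division lists are themselves known from DNA replication. ZNF367, a zinc finger factor expressed in dividing cells, was at 32.7, 21.8, 10.5 and 7.03 TPM in mice 75, 104, 94 and 100, against 1.22, 2.73 and 4.77 TPM, and rose by 2.19 (SE 0.32, limma adjusted p 0.00329). PCLAF, which binds the replication clamp PCNA, was at 88.0, 84.5, 48.9 and 41.8 TPM, against 9.94, 18.4 and 33.7 TPM, and rose by 1.77 (SE 0.28, limma adjusted p 0.00457). Neither gene overlapped between groups, and both stayed called without any 1 tumour. FAM111B, a protease linked to replication, rose by 2.24 (SE 0.47, limma adjusted p 0.0111) and lost the call without mouse 75 (0.0648). As for the listed division genes, the rise of these genes follows to some degree from the choice of tumours. Their p-values are therefore given as a description.

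The remaining genes with large rises have roles outside division or none assigned. GRIN3A, a subunit of the NMDA glutamate receptor, was at 14.7, 91.1, 0.520 and 20.6 TPM, against 0.0381, 0.553 and 3.85 TPM, so that mouse 94 stood at the quiet median while the other cycling tumours were above all quiet ones. Its log2 difference was 2.84 (SE 0.73, limma adjusted p 0.0233), and the call was lost without mouse 75, 104 or 100. The long noncoding RNA LINC00844 was at 8.59, 41.7, 14.2 and 9.38 TPM, against 0.473, 2.37 and 5.16 TPM, and rose by 2.24 without overlap (SE 0.45, limma adjusted p 0.00965). TMSB15A, an actin-binding thymosin, rose by 1.87 (SE 0.51, limma adjusted p 0.0297), led by mouse 75 at 52.4 TPM, and did not pass without mouse 75 (1.32, limma adjusted p 0.149) or 104 (0.0553). The noncoding COLCA1, the T cell receptor constant segment TRGC1 and the unnamed loci AC073140.2 and AL589986.2 had log2 differences of 1.88, 1.75, 2.34 and 1.83 and reached at most 18.6 TPM in a cycling tumour, and all lost the call without mouse 75.

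Among the genes called lower, AOC1 (chromosome 7, 150852120 to 150861504) had the largest difference. It encodes the diamine oxidase that degrades histamine and putrescine. Its level was 7.92, 2.82, 25.1 and 61.6 TPM in mice 75, 104, 94 and 100, against 52.9, 107 and 362 TPM in quiet tumours, so that only mouse 100 reached the quiet range. It fell by 3.18 in log2 (SE 0.64, limma adjusted p 0.00940). COL5A2, a fibrillar collagen chain, was at 1.59, 18.1, 16.4 and 10.6 TPM, all below the quiet tumours at 23.5, 92.2 and 306 TPM. It fell by 3.09 (SE 0.60, limma adjusted p 0.00855) and stayed called in every alternative run. The collagen COL3A1 of the stroma list moved with it, as given above, and its part in this difference was not tested. JAG1, a ligand of Notch receptors, was at 13.0, 75.8, 59.1 and 107 TPM, against 88.3, 390 and 611 TPM, and fell by 2.47 (SE 0.58, limma adjusted p 0.0164), with mouse 100 inside the quiet range. Without mouse 75 the adjusted p was 0.0504 for AOC1 and 0.0858 for JAG1 by limma.

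DDC (chromosome 7, 50458442 to 50565405), the decarboxylase that makes dopamine and serotonin, was at 152, 22.5, 628 and 148 TPM, against 335, 534 and 1368 TPM. Mouse 94 stood within the quiet range and the other cycling tumours below it. The log2 difference was -2.18 (SE 0.58, limma adjusted p 0.0271), and it did not pass as deposited (-2.01, limma adjusted p 0.0704) or without mouse 75, 104 or 100. GRB10 on the same chromosome (50590068 to 50793453), an adaptor that dampens insulin and IGF receptor signalling, was at 81.4, 42.8, 174 and 147 TPM, against 159, 364 and 525 TPM, and fell by 1.81 (SE 0.33, limma adjusted p 0.00749), with mouse 94 just inside the quiet range. TMEM59L, a membrane protein expressed in brain, was at 2.13, 2.86, 6.90 and 7.84 TPM, below all quiet tumours at 10.3, 25.1 and 41.9 TPM, and fell by 2.15 (SE 0.34, limma adjusted p 0.00414).

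Other genes with large falls were ADAM2, SMCO3, FMR1NB, ACHE and PLXDC2, at log2 differences of -2.59, -2.47, -2.28, -2.12 and -2.11. ACHE is acetylcholinesterase, and ADAM2 and FMR1NB are known from testis. For SMCO3 and FMR1NB all 4 cycling tumours were below all quiet ones. Without mouse 75 the call was lost for ADAM2, SMCO3, FMR1NB and ACHE, and without mouse 104 for ADAM2, FMR1NB, ACHE and PLXDC2. AP001160.5 had -2.86 and was at 0 in mice 75, 104 and 94 and at 30.2 TPM in mouse 100, and PCDH11Y had -2.14, and both lost the call in most alternatives.

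Few genes of cell cycle exit passed the test. Of 30 tested CDK inhibitors and quiescence genes none passed higher and 2 passed lower, with a median of -0.33. Of all genes outside division 1.28% passed higher and 9.84% lower, so these counts set the list apart in neither direction. CDKN2B, which inhibits CDK4 and CDK6, was at 2.09, 1.32, 4.72 and 2.91 TPM, against 3.06, 6.79 and 22.4 TPM, and fell by 1.32 (SE 0.38, limma adjusted p 0.0373). It did not pass as deposited or centred (limma adjusted p 0.0786 and 0.0796), nor without mouse 75 (0.127), and the call was also lost without cycling mouse 104 or 100 and without quiet mouse 95, 105, 64, 65 or 98. YPEL3, a gene linked to growth arrest, was lower in all 4 cycling tumours than in any quiet one, as were 3.66% of all genes outside division, with -0.67 (SE 0.19, limma adjusted p 0.0323). It did not pass as deposited (limma adjusted p 0.226), centred (0.139) or without mouse 75 (0.0902) or 104 (0.101). CDKN1A, CDKN1B and CDKN1C, which encode p21, p27 and p57, had log2 differences of -0.56, -0.40 and -0.76 (limma adjusted p 0.403, 0.238 and 0.0773). Of 13 G1 cyclins and CDKs tested none passed. CCND1, cyclin D1, was at 65.0, 97.3, 127 and 78.3 TPM against 61.0, 91.1 and 177 TPM, -0.10 in log2 (SE 0.23, limma adjusted p 0.791) whose sign depended on the scaling. MYC, a driver of growth and ribosome synthesis, was at 58.0, 78.2, 78.0 and 133 TPM against 16.6, 57.9 and 76.4 TPM, with 0.88 (SE 0.38, limma adjusted p 0.129). Its difference did not pass without any 1 tumour either (limma adjusted p 0.106 to 0.317). Against the marker mean as a continuous measure MYC had a slope of 0.45 that passed (limma adjusted p 0.0259).

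Ribosomal protein genes were the list outside division with the highest median. Of 79 cytosolic ribosomal protein genes 77 were above 0 and 30 passed the test, all of them higher, beside 1.28% of all genes outside division that passed higher. None reached the size for a call, with a median of 0.49. RPS7 was at 2073, 1852, 1586 and 1798 TPM, above all quiet tumours at 824, 1064 and 1442 TPM (0.78, SE 0.14, limma adjusted p 0.00749). RPS3A and RPL35 had 0.81 and 0.71, also without overlap. Reads of these genes can be shared with processed pseudogenes, so single values are uncertain. Of 55 genes of ribosome biogenesis, MYC among them, 3 passed higher and 2 lower, with NPM1, a nucleolar chaperone, at 0.68 (limma adjusted p 0.0260). Of 77 mitochondrial ribosomal protein genes none passed higher and 2 passed lower, beside 9.84% of all genes outside division that passed lower, with a median of -0.03.

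Lysosome and autophagy genes were lower. Of 36 tested 34 were below 0, 15 passed lower, none passed higher and 2 were called, beside 9.84% of all genes outside division that passed lower, with a median of -0.46 and of -0.27 after centring. CTSD (chromosome 11, 1752755 to 1763927), the lysosomal protease cathepsin D, was at 99.5, 106, 157 and 115 TPM, below all quiet tumours at 184, 230 and 310 TPM, and fell by 1.01 (SE 0.14, limma adjusted p 0.00329). MAP1LC3B, the LC3 protein of autophagosome membranes, was at 50.0, 42.7, 46.8 and 59.0 TPM, against 79.4, 101 and 158 TPM, and fell by 1.06 (SE 0.15, limma adjusted p 0.00329). GABARAPL2, of the same protein family, had -0.95 (SE 0.16, limma adjusted p 0.00562), again without overlap. Centring brought these differences to -0.82, -0.87 and -0.76, which still passed the test (limma adjusted p 0.00570, 0.00484 and 0.0107) and were short of the size for a call.

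Antigen presentation and interferon genes were lower in part. Of 15 genes of MHC class I presentation 6 passed lower and none higher, beside 9.84% and 1.28% of all genes outside division, with a median of -0.49. HLA-B and HLA-E, class I molecules, had log2 differences of -0.91 and -0.79 (limma adjusted p 0.0300 and 0.0227), with mouse 94 inside the quiet range and the other cycling tumours below it for both. HLA genes resemble each other, and their reads may have been divided among them. Of 32 interferon-stimulated genes 7 passed lower, beside 9.84% of all genes outside division, with a median of -0.43, led by IFITM2 at 10.8, 28.3, 19.0 and 23.5 TPM against 33.5, 52.5 and 75.9 TPM (-1.28, SE 0.24, limma adjusted p 0.00749). The OAS genes of the same list did not pass, with OAS1 at 0.34 and OAS3 at 0.63.

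Receptor and surface genes included targets of drugs in use. All 9 tested ERBB receptors and ligands were below 0, as were 12469 of all 17016 genes, and 3 passed lower and 1 was called, beside 9.84% and 1.39% of all genes outside division. Their median was -0.63. ERBB2, the HER2 receptor, was at 83.6, 137, 166 and 112 TPM against 161, 189 and 250 TPM (-0.67, SE 0.17, limma adjusted p 0.0200), and it did not pass as deposited (-0.50, limma adjusted p 0.190). The ligands NRG3 and BTC had -1.15 and -0.84 (limma adjusted p 0.0441 and 0.0455), and neither passed as deposited (0.149 and 0.152), centred (0.0888 and 0.128) or without mouse 75 (0.206 and 0.150). FOLH1, which encodes the prostate-specific membrane antigen, was at 567, 737, 2285 and 908 TPM against 1438, 1793 and 2873 TPM. It fell by 1.02 (SE 0.28, limma adjusted p 0.0298), with mouse 94 among the quiet tumours, and did not pass as deposited (-0.85, limma adjusted p 0.145) or centred (limma adjusted p 0.0575). Of 11 surface targets tested FOLH1 and STEAP2 passed, both lower, beside 9.84% of all genes outside division. CDH1, the epithelial cadherin, had -0.80 (SE 0.17, limma adjusted p 0.0106) and CLDN7, a tight junction protein, -0.54 (limma adjusted p 0.0183), the 2 of 17 keratin, cadherin and related genes that passed. That share lies near the 9.84% of all genes outside division that passed lower.

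The other lists held few genes that passed, and their counts stand beside 1.28% higher and 9.84% lower of all genes outside division. Of 17 polyamine genes AMD1, which makes the aminopropyl donor, passed higher with 0.51 (limma adjusted p 0.0306), and AOC1, SLC3A2 and AZIN2 passed lower. Among 10 IGF and insulin genes GRB10 and IGF2R (-0.81, limma adjusted p 0.00838) passed. Of 45 primary cilium genes 6 passed lower and none was called, a share near the 9.84% of all genes outside division, with a median of -0.30 and BBS1 and IFT140 at -0.71 and -0.75. Of 25 genes of protein folding in the endoplasmic reticulum 4 passed lower, again beside 9.84% of all, among them HYOU1 at -0.69 and HERPUD1 at -0.67, neither of which passed as deposited (limma adjusted p 0.0911 and 0.116). In the BCL2 family 2 of 17 tested genes passed lower, a share near the 9.84% of all genes outside division. These were the pro-apoptotic BAD (-0.67) and the protective BCL2L2 (-0.61). Both were lower without overlap, as were 3.66% of all genes outside division. Under other scalings or models their limma adjusted p reached 0.214 and 0.187. The hypoxia and glycolysis list had 1 of 35 higher, the carbonic anhydrase CA12 at 0.88 (limma adjusted p 0.0430), and 2 lower, P4HA2 and ADM, with a median of 0.09.

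Splicing factors had 1 of 54 higher, beside 1.28% of all genes outside division, HNRNPA1 at 0.60 (limma adjusted p 0.0222). No member passed in 7 lists with 100 tested genes, among them cholesterol synthesis (25, median 0.01), the mitochondrially encoded respiratory chain (13, median 0.22), immediate early genes (20, median -0.30) and neuroendocrine genes (6, median -0.08). The metallothioneins, also without a member past the test, had the lowest median of all lists at -0.95, with MT2A at 108, 494, 162 and 84.4 TPM against 209, 419 and 950 TPM (-1.38, SE 0.44, limma adjusted p 0.0522). Centring moved the median of every list up by the same amount, so that 8 of 37 medians were above 0 after rescaling and 20 after centring.

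**Figure D4:**
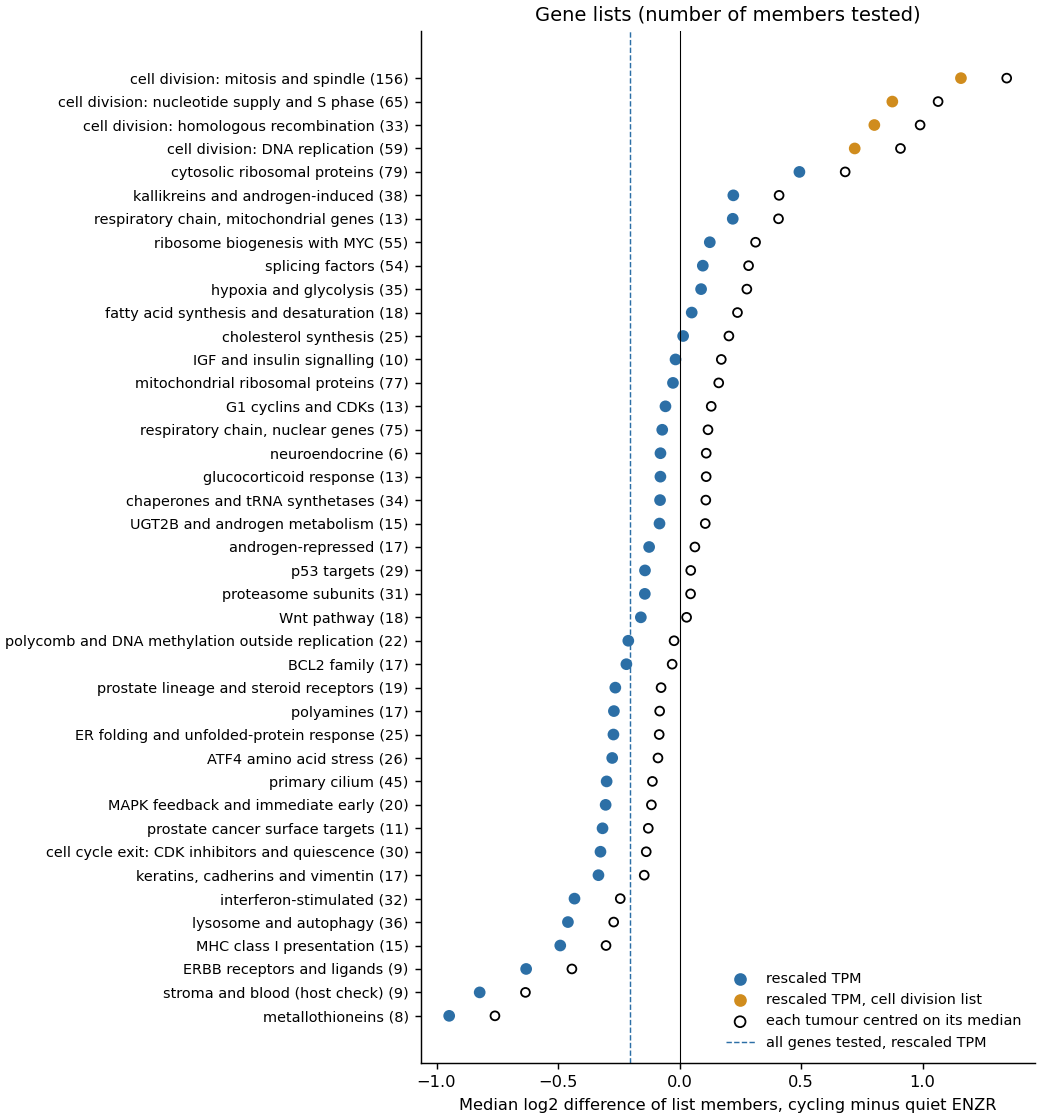
Median log2 difference between cycling and quiet ENZR tumours (horizontal axis) of each gene list, with the number of members tested, as rescaled TPM (filled) and after centring each tumour on its median (open). Ribosomal proteins at 0.49 are highest outside cell division, metallothioneins at -0.95 are lowest, and the dashed line is the median of all genes at -0.20.

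Tumours that the split did not use gave the same measure again. Within each other group the log2 level of each gene was regressed on the marker mean with limma, and calling required an adjusted p below 0.05 and a slope of 0.5 log2 per unit or more in size. In the 10 CRPC tumours 34 of the 42 genes that rose had a slope above 0, compared with 47.1% of all genes outside division, and 8 were called in that direction, beside 0.666% of all genes. Of the 231 lower genes 204 had a slope below 0, compared with 52.8% of all, and 18 were called, beside 0.828%. In the 12 ENZS tumours 38 of 42 and 208 of 231 had the same direction, compared with 28.5% and 71.4% of all genes, and 9 and 6 were called, beside 0.126% and 0.21%. None of the 273 genes was called in the opposite direction in either group. The 42 genes include ZNF367, PCLAF and FAM111B, known from replication, and ZNF367 and FAM111B were called in both groups. How much of these counts such genes supply was not tested.

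In PRE-CX and POST-CX tumours, whose marker means span a narrow range, limma called 0 genes (0.0%), with 970 and 530 genes outside division at an unadjusted p under 0.05. In PRE-CX 26 of the 42 genes (61.9%) had a slope above 0, below the 65.0% of all genes outside division, and 141 of the 231 had a slope below 0 (61.0%, compared with 34.9% of all). In POST-CX the counts were 27 of 42 (64.3%, compared with 38.4%) and 172 of 231 (74.5%, compared with 61.5%). The slopes in ENZR and CRPC were also compared directly by an interaction term over 24 tumours, and 0 of 17016 genes passed an adjusted p of 0.05 (lowest 0.229), with 1429 at an unadjusted p under 0.05 by limma.

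For single genes the other groups gave mixed values. AOC1 was called in both, with slopes of -2.05 in CRPC (limma adjusted p 0.0393) and -1.17 in ENZS (limma adjusted p 0.0102). ZNF367 was also called in both, with 0.83 and 0.58 (limma adjusted p 0.00650 and 0.00200), and so was FAM111B, with 0.99 and 0.82 (0.0336 and 0.0150). ZNF367 and FAM111B are known from replication, so their slopes on division markers are given as a description. KLK3 had a slope of 0.81 in ENZS (limma adjusted p 0.0353) and of 0.15 in CRPC (0.751), and KLK2 had 0.56 and 0.16, neither of which passed. ERBB2 passed in ENZS at -0.42 (limma adjusted p 0.000964) without reaching the size for a call. CTSD had slopes of 0.01 in CRPC and -0.02 in ENZS, and RPS7 of -0.18 and 0.15, none of which passed. Within ENZR the slope of CTSD was -0.23 (limma adjusted p 0.121), which did not pass either, and that of RPS7 was 0.30 (limma adjusted p 0.000887). The ribosomal protein list had a median slope of -0.06 in CRPC with 0 of 79 called. Hypoxia and glycolysis genes had a median slope of 0.80 in CRPC with 10 of 35 called, beside the median difference of 0.09 in ENZR.

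**Figure D5:**
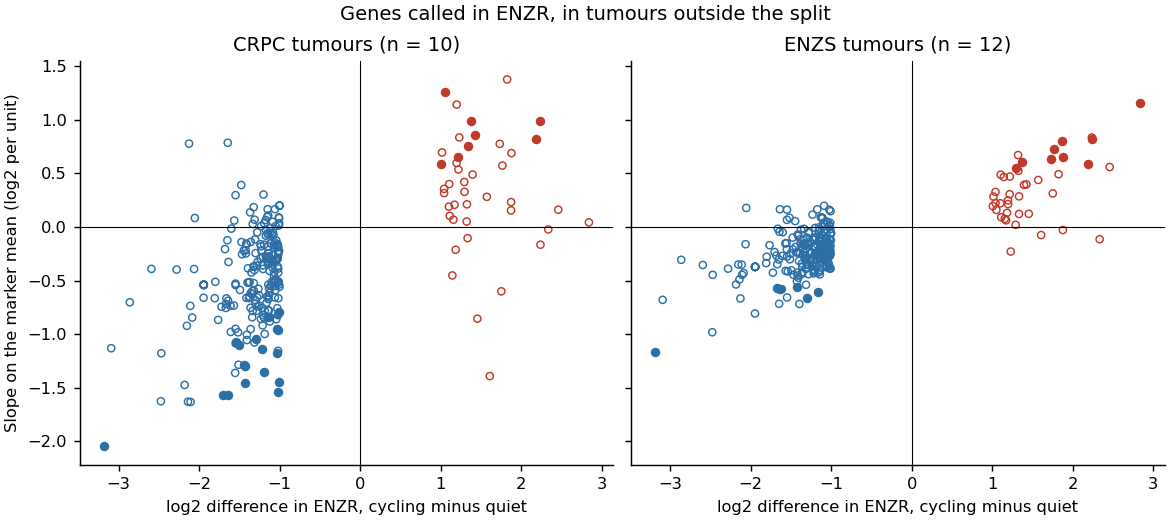
Slope on the marker mean in CRPC (left) and ENZS (right) tumours (vertical axes, log2 per unit) against the log2 difference in ENZR (horizontal axes) for the 273 genes called outside cell division. Filled points are called in that group too, 26 in CRPC and 15 in ENZS, and most points lie in the lower left and upper right.

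The levels of a few of these genes in the cycling and quiet ENZR tumours are set beside those in CRPC and ENZS. KLK3 averaged 4511 ± 2322 TPM in cycling ENZR (SD, n = 4) and 4646 ± 1174 TPM in CRPC (SD, n = 10), against 1206 ± 683 TPM in quiet ENZR (SD, n = 10) and 2620 ± 1518 TPM in ENZS (SD, n = 12). DDC averaged 238 ± 267 and 198 ± 116.4 TPM in cycling ENZR and CRPC, against 685 ± 363 and 670 ± 439 TPM in quiet ENZR and ENZS. CTSD averaged 119 ± 26.1 and 144 ± 28.1 TPM, against 240 ± 38.4 and 234 ± 42.6 TPM, and RPS7 1827 ± 200 and 1754 ± 574 TPM, against 1076 ± 186 and 1017 ± 213 TPM. JAG1 averaged 63.8 ± 39.3 TPM in cycling ENZR and 236 ± 116.5 TPM in CRPC. Over all called genes, 39 of the 42 that rose were higher in CRPC than in ENZS on the mean log2 scale, compared with 22.4% of all genes outside division. Of the 231 lower genes, 226 were lower in CRPC than in ENZS, compared with 77.6% of all. These group means were compared as a description, without a test.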

How the data were processed

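RNA-seq of 54 LNCaP xenografts was used as TPM per human gene symbol, a relative unit without read depth. Per the submitters' processing notes and the methods of the study, the authors checked reads with FastQC 0.11.9, trimmed them with Trim Galore 0.6.5, aligned them with STAR 2.7.2b to joined human GRCh38 and mouse GRCm38 references, and estimated TPM with RSEM 1.3.3. The deposited TPM hold human genes only, so their sum falls with mouse content. Depth per tumour is unknown, and no counting interval is given, so precision rests on the spread between tumours.

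Here each tumour was rescaled to 1000000 TPM, 2 tumours under 300000 TPM were left out, and log2(TPM + 1) was tested for genes that reached 1 TPM in 4 or more of the 14 tumours (limma 3.58.1 with trend in R 4.3.3, Python 3.11.15). A difference on this scale understates that of low genes. Cell division comprised 4 gene lists and replication histones, and 37 other lists were counted. Members and lists were chosen with earlier results of these data known. Genes were named by rule: the markers, the 12 largest called rises and 12 largest falls outside division whose higher group averaged 5 TPM or more, a panel of 16 genes and, per list, up to 3 members in each direction by absolute moderated t (largest difference for division lists). The panel held KLK3, KLK2, FKBP5, TMPRSS2, NR3C1, ERBB2, MYC, CCND1, CDKN1A, CDKN1B, CDKN1C, DDC, OPRK1, UGT2B17 and genes not reported here. H4C15 and the stroma genes given singly were chosen after their values were seen. The fit was tested on simulated data. Coordinates and promoters are from RefSeq (GRCh38.p14).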

Additional observations from a re-analysis of the deposited data

Results flagged for a closer look

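In 3 of 86 groups of 4 or 10 tumours checked, a single tumour stood apart from the others of its group, where chance alone gives about 1 in 20. AP001160.5 was at 30.2 TPM in cycling mouse 100 and at 0 in the other cycling tumours. PLXDC2 was at 2.23 TPM in quiet mouse 33, against 12.1 to 34.3 TPM in the other quiet tumours. CDKN1B was at 28.1 TPM in quiet mouse 21, against 47.3 to 83.3 TPM in the others.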

How the results depend on the processing

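The total of 419 called genes became 272 with TPM as deposited, 697 with a pseudocount of 0.1, 239 without the filter on low values and 224 with the marker mean as a continuous covariate. Outside cell division the 231 lower genes became 61 as deposited, 79 centred, 488 with a pseudocount of 0.1, 108 without the filter and 92 with the continuous covariate. Of the 273 genes called outside cell division, 97 were called again as deposited and 58 with the continuous covariate. The 42 higher genes became 79 centred, 20 without the filter and 13 with the continuous covariate. Leaving out 1 tumour gave 133 to 573 calls in all, 14 to 53 higher and 65 to 368 lower outside cell division, with the lowest counts without mouse 75 and the highest without mouse 94. Slope calls went from 405 to 185 in CRPC without the filter and from 130 to 250 in ENZS with a pseudocount of 0.1.

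The difference in human TPM total lay between 7.98 and 11.1 percentage points without 1 tumour and missed the threshold without mouse 75, 104, 94, 100, 72, 23 or 98 (exact permutation p up to 0.0979). That in genes at 1 TPM was -278.4 as deposited. CCND1 changed sign, to 0.0623 as deposited, 0.0851 centred and 0.0461 without mouse 75 (-0.27 to 0.0461 without 1 tumour). For 98 named genes outside cell division and 2547 comparisons, 2314 left the call as it was, 187 ended it, 43 gained it and 3 reversed the sign. The causes were not tested.

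Leaving out mice 23 and 103 together, rescaling without mitochondrial genes and adding mouse 87 were chosen after seeing the data. No paired analysis was possible because the groups share no replicate numbers. TPM keep no read depth, so counting error could not be separated from the spread between tumours.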
